A study of Mus musculus with 20 samples.

Results

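The unfolded protein response and the integrated stress response were followed in visceral adipose tissue (VAT) of mice through 10 genes. These were Eif2ak3, Ern1, Atf6, Xbp1, Atf4, Atf3, Ddit3, Trib3, Asns and Herpud1, taken by gene name from the spots of a whole-genome expression array that are not controls, and they are 10 of 37,074 gene names on that array. All 10 had a measurable signal and were tested, among 25,618 gene names. The array carries 22 probes for them, of which 20 were tested, and the other 2, both for Ern1, were well above background on 0 and 1 of the 20 arrays.

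Secreted and membrane proteins fold in the endoplasmic reticulum (ER), and the unfolded protein response is the signalling that an overload of this compartment sets off. Its sensors sit in the ER membrane: the kinase PERK (gene Eif2ak3), the kinase and endonuclease IRE1 (Ern1), which splices the Xbp1 mRNA, and ATF6, a transcription factor that is released by proteolysis. PERK phosphorylates the translation factor eIF2, as do kinases that sense a shortage of amino acids, viral RNA or lack of haem, and these inputs together make up the integrated stress response, in which most translation is slowed while the transcription factor ATF4 is translated more. Because PERK, IRE1, ATF6, XBP1 and ATF4 are all controlled after transcription, the amount of their mRNA is not a measure of their activity. In obese adipose tissue both adipocytes and macrophages are known to engage these pathways.

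The mice were F3 males of the C57bl/6J strain, 1 array per mouse, and all groups came from lineages kept for 3 generations on a supplemented growing diet. Ref (6 mice, labelled STD Cont) came from the lineage given a control fatty acid supplement of high-oleic sunflower oil, and was later fed a low-fat reference diet. HFoleic (6 mice, labelled HFD Cont) came from the same lineage and received a high-fat, high-sucrose diet, and HFepa (8 mice, labelled HFD O3) received that diet after a lineage given an omega 3 supplement of fish oil rich in eicosapentaenoic acid (EPA). HFoleic vs. Ref therefore contrasts later diets within a lineage, and HFepa vs. HFoleic contrasts lineages on the same later diet. HFepa vs. Ref changes lineage and later diet together, so the share of each cannot be told apart there. It also uses the same Ref arrays as HFoleic vs. Ref. The paper began with 8 mice per group and hybridised only RNA above a set integrity, which left the group sizes given here. All mice were killed in the fasted state, the tissue was the epididymal depot taken whole, and mouse ages are not in the labels.

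Between 66.1% and 71.9% of the spots on an array were well above background, no spot was saturated, and no pair of arrays held identical values. The arrays lay on 3 slides, each with all 3 groups. Slide 2 held 1 HFoleic array, so HFoleic differences within that slide rest on 1 mouse of the group. All 10 adipocyte markers were measurable, and Adipoq (adiponectin) and Plin1 (perilipin) averaged 18.09 and 15.20 on the normalised log2 scale over the 20 arrays. In HFoleic vs. Ref, Adipoq differed by -0.03 (adjusted p = 0.83) and Plin1 by -0.33 (adjusted p = 0.104). Others of the 10 did differ at an adjusted p below 0.05, 1 higher and 2 lower. RNA of other tissue was present on some arrays. The 5 tested markers of epididymis and testis were Rnase10, Adam7, Prm1, Prm2 and Tnp1. Their mean was 9.44 in Ref mouse 3, 9.38 in HFoleic mouse 5, 9.10 in Ref mouse 6 and 8.41 in HFepa mouse 4. On the other 16 arrays it was 6.47 to 7.35. Lcn5, Lcn8, Crisp1, Defb12 and Svs2 were not tested, being well above background on fewer than 6 arrays. That filter cannot show whether they were present on the 4 named arrays. Counts are therefore also given without those 4 arrays.

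All values below are normalised log2 signals, a difference is a log2 fold change from limma, and a gene is called where its Benjamini-Hochberg adjusted p over all 39,390 probes tested was below 0.05. In HFoleic vs. Ref, 6 of the 10 genes were called, Atf3 and Eif2ak3 higher and Asns, Trib3, Xbp1 and Herpud1 lower. Of all 25,618 genes, 31.8% were called in this contrast, 15.2% higher and 16.7% lower. The same 6 had an unadjusted p below 0.05, which held for 42.2% of all genes. The 6 Ref and the 6 HFoleic mice did not overlap at all for 4 of them, Atf3, Eif2ak3, Asns and Herpud1, as for 14% of all genes. The median difference of the 10 was -0.07, against -0.04 over all genes, and 8 of the 10 differences were below 0, of which 4 were not called. Without the 4 arrays named above, Atf3 (2.75, adjusted p = 0.0228), Eif2ak3 (0.37, adjusted p = 0.0101) and Asns (-1.27, adjusted p = 0.021) were still called, 3 of the 10 against 18.1% of all genes. Xbp1 (-0.39, adjusted p = 0.0907), Trib3 (-0.64, adjusted p = 0.0678) and Herpud1 (-0.26, adjusted p = 0.115) were then no longer called.

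**Figure D1:**
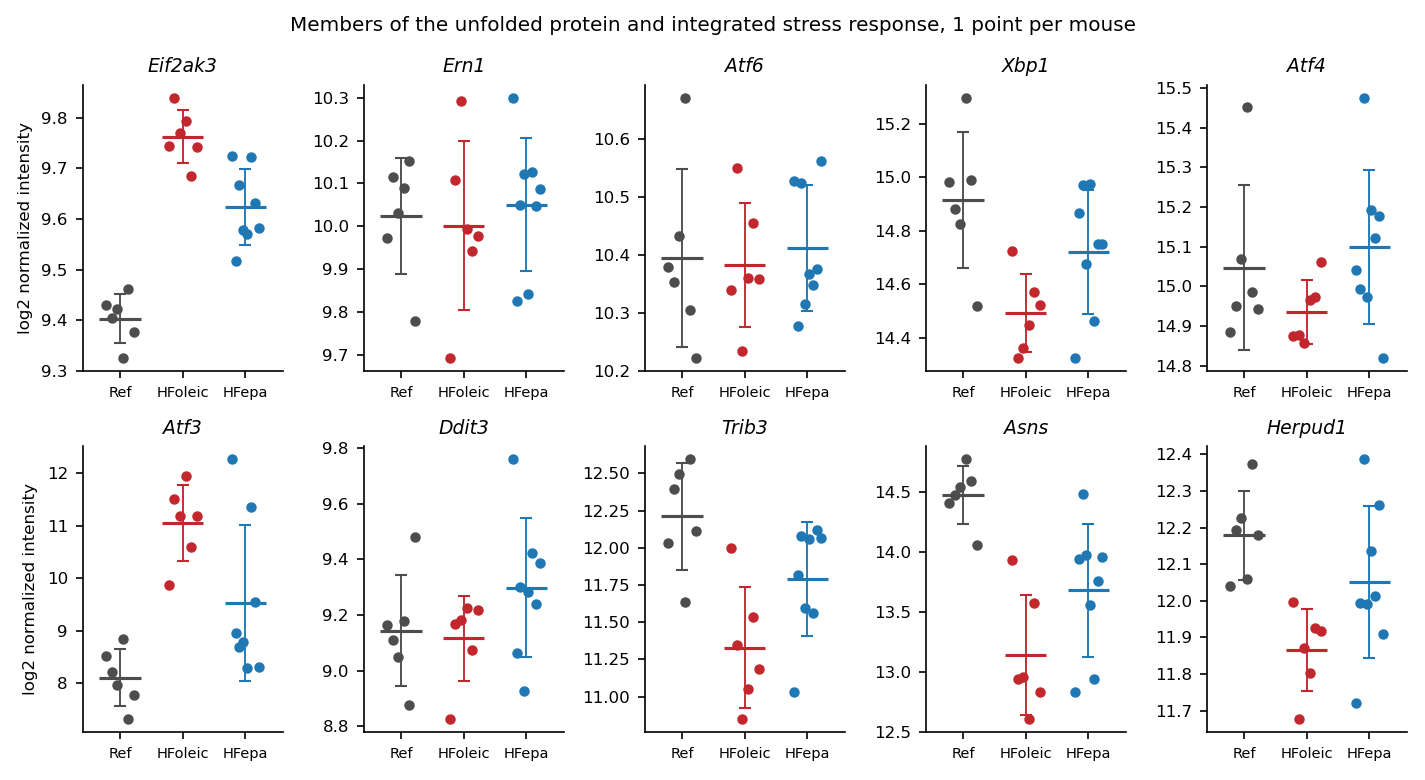
Normalised log2 signal of the reporting probe of each of the 10 genes, 1 point per mouse, for Ref (6 mice), HFoleic (6 mice) and HFepa (8 mice), with the group mean as a line and 1 SD as error bars, and each gene on its own y axis. Atf3 and Eif2ak3 lie higher in HFoleic than in every Ref mouse and Asns and Herpud1 lower, while 2 HFepa mice stand above the rest of their group for Atf3, at 11.35 and 12.27.

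Among the sensors, the PERK gene Eif2ak3 was higher than in Ref in both groups on the high-fat diet, on its reporting probe. The probe reporting it (mm9 chr6:70855152-70855211) had a lowest, median and highest log2 signal of 9.33, 9.41 and 9.46 in Ref, 9.69, 9.76 and 9.84 in HFoleic, and 9.52, 9.61 and 9.72 in HFepa. No mouse of either high-fat group was inside the Ref range, and HFepa overlapped with HFoleic only at its upper end. Eif2ak3 rose 1.28-fold in HFoleic vs. Ref (log2 0.36, SE 0.05, adjusted p = 0.000264) and 1.17-fold in HFepa vs. Ref (0.22, SE 0.05, adjusted p = 0.0239). Within slides 1, 2 and 3 the HFoleic minus Ref difference was 0.34, 0.49 and 0.29. A second Eif2ak3 probe (mm9 chr6:70814739-70814798) was far dimmer, with a mean log2 signal of 6.13 against 9.60 on the reporting one. It rose in HFoleic vs. Ref as well (0.23, adjusted p = 0.0434) but stood at 0.02 in HFepa vs. Ref (adjusted p = 0.907). So the HFepa call rests on 1 of the 2 probes. That call was also lost without Ref mouse 3 (0.22, adjusted p = 0.0523), Ref mouse 5 (0.21, 0.0506) or HFepa mouse 6 (0.21, 0.058), and was kept under 27 of 34 alternative settings.

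The other sensors showed no call on their reporting probes. Ern1 (mm9 chr11:106255965-106256024) had a lowest, median and highest signal of 9.78, 10.06 and 10.15 in Ref, 9.69, 9.99 and 10.29 in HFoleic, and 9.83, 10.07 and 10.30 in HFepa, and the groups overlapped widely. Its HFoleic vs. Ref difference was -0.02 (SE 0.09, adjusted p = 0.885). A dimmer Ern1 probe that lies 19,159 bases upstream of the reporting one (mm9 chr11:106275124-106275183) did differ, with 6.39, 6.55 and 6.74 in Ref, 6.69, 6.87 and 7.01 in HFoleic and 6.42, 6.70 and 6.90 in HFepa. It rose 1.22-fold in HFoleic vs. Ref (0.29, SE 0.08, adjusted p = 0.00657), while a middle probe was at 0.07 (adjusted p = 0.621), so the probes of this gene disagree.

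Atf6 (mm9 chr1:172637679-172637738) had a lowest, median and highest signal of 10.22, 10.37 and 10.67 in Ref, 10.23, 10.36 and 10.55 in HFoleic, and 10.28, 10.37 and 10.56 in HFepa. Its HFoleic vs. Ref difference was -0.01, with a 95% interval of -0.17 to 0.15 (adjusted p = 0.928), so a difference beyond that interval was not seen here. A second Atf6 probe was at 0.06 (adjusted p = 0.562).

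Xbp1, the transcription factor whose mRNA IRE1 splices, fell 1.34-fold in HFoleic vs. Ref (-0.42, SE 0.12, adjusted p = 0.0123). Its signal (mm9 chr11:5425816-5425875) was 14.52, 14.93 and 15.30 in Ref, 14.33, 14.49 and 14.72 in HFoleic, and 14.33, 14.75 and 14.98 in HFepa, as lowest, median and highest. The groups overlapped through the lowest Ref mouse, which lay among the HFoleic mice. A second Xbp1 probe also fell (-0.42, adjusted p = 0.0293), and the remaining probe was at -0.35 (adjusted p = 0.0798). None of the 3 probes covers the start of the segment that IRE1 removes (0 of 3), so the spliced and unspliced forms were not measured apart.

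Of the transcription factors downstream of eIF2, Atf3 moved most and Atf4 was not called. Atf4, the factor whose translation increases when eIF2 is phosphorylated, had a lowest, median and highest signal of 14.88, 14.97 and 15.45 in Ref, 14.86, 14.92 and 15.06 in HFoleic, and 14.82, 15.08 and 15.48 in HFepa (mm9 chr15:80087902-80087961). The 3 groups overlapped. The difference was -0.11 in HFoleic vs. Ref (SE 0.10, adjusted p = 0.422), and -0.12 on a second probe (adjusted p = 0.374).

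Atf3, an early stress-induced repressor and activator of the ATF/CREB family that macrophages also express after inflammatory signals, rose 7.68-fold in HFoleic vs. Ref (2.94, SE 0.57, adjusted p = 0.00122). Its single probe (mm9 chr1:192994547-192994606) gave a lowest, median and highest signal of 7.31, 8.09 and 8.85 in Ref and of 9.88, 11.18 and 11.95 in HFoleic. Each HFoleic mouse was above each Ref mouse, and the difference was 2.63, 3.19 and 3.25 within the 3 slides. HFepa ran from 8.30 over a median of 8.87 to 12.27, the widest of the groups (SD 1.48, against 0.55 in Ref and 0.73 in HFoleic). In HFepa, 6 mice were between 8.30 and 9.55, all below the HFoleic mice, and mouse 6 (11.35) and mouse 1 (12.27) were inside or above the HFoleic range. HFepa vs. Ref was 1.42 (SE 0.54, adjusted p = 0.141) and HFepa vs. HFoleic was -1.52 (95% interval -2.64 to -0.40, adjusted p = 0.142), neither of them called.

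Macrophage markers moved with Atf3. In HFoleic vs. Ref, 8 of 10 macrophage markers were higher and none lower, among them Adgre1 (2.27, SE 0.43, adjusted p = 0.0011) and Cd68 (2.41, SE 0.49, adjusted p = 0.00158), and the list mean ran from 11.04 to 11.57 in Ref, from 12.03 to 13.15 in HFoleic and from 11.06 to 13.06 in HFepa. All 9 of 9 markers of lipid-associated macrophages were higher, with a mean of 8.86 to 10.09 in Ref and 11.80 to 13.65 in HFoleic. In HFepa that mean was 13.21 in mouse 6 and 14.06 in mouse 1, the mice with the most Atf3, and 9.41 to 11.42 in the other 6. In the adipocyte list 1 marker was higher and 2 lower of 10, with a mean of 15.55 to 15.90 in Ref, 15.46 to 15.82 in HFoleic and 15.45 to 15.80 in HFepa. Of 10 fibroblast markers 4 were higher, and of 5 erythroid markers 4 were lower. The paper estimated cell types from its expression data with CIBERSORT and reported no difference in the share of the main types, immune cells included. The part of these cell types in the values of the 10 genes was not tested. In whole tissue, fewer cells of a type and less RNA per cell cannot be told apart.

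Ddit3 encodes CHOP, a transcription factor linked to cell death under prolonged ER stress, and its 2 probes gave different answers. The brighter probe, which reports the gene, had a lowest, median and highest signal of 8.87, 9.14 and 9.48 in Ref, 8.82, 9.17 and 9.23 in HFoleic, and 8.92, 9.29 and 9.76 in HFepa, and differed by -0.03 in HFoleic vs. Ref (SE 0.12, adjusted p = 0.886). The other probe had 8.25, 8.72 and 8.84 in Ref, 9.09, 9.17 and 9.39 in HFoleic, and 8.66, 8.94 and 9.27 in HFepa. There each HFoleic mouse was above each Ref mouse, and the signal rose 1.47-fold (0.56, SE 0.11, adjusted p = 0.00106), with HFepa vs. Ref at 0.27 (adjusted p = 0.13). The probes are shown because the answer depends on which is read. The first lies at mm9 chr10:126731579-126731638 and belongs to an Ensembl transcript, and only its first 30 bases are printed. The second covers 304 bases of genome, chr10:126732518-126732821, with its 60 bases, so that it crosses an intron and reads spliced RNA, and 879 bases separate them. Capitals are not used, since no part of either is singled out.
Ddit3 reporting probe, first 30 bases: accaggaacacacacacagcacacattcag
Ddit3 spliced-transcript probe: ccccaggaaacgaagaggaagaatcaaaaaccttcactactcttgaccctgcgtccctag

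**Figure D2:**
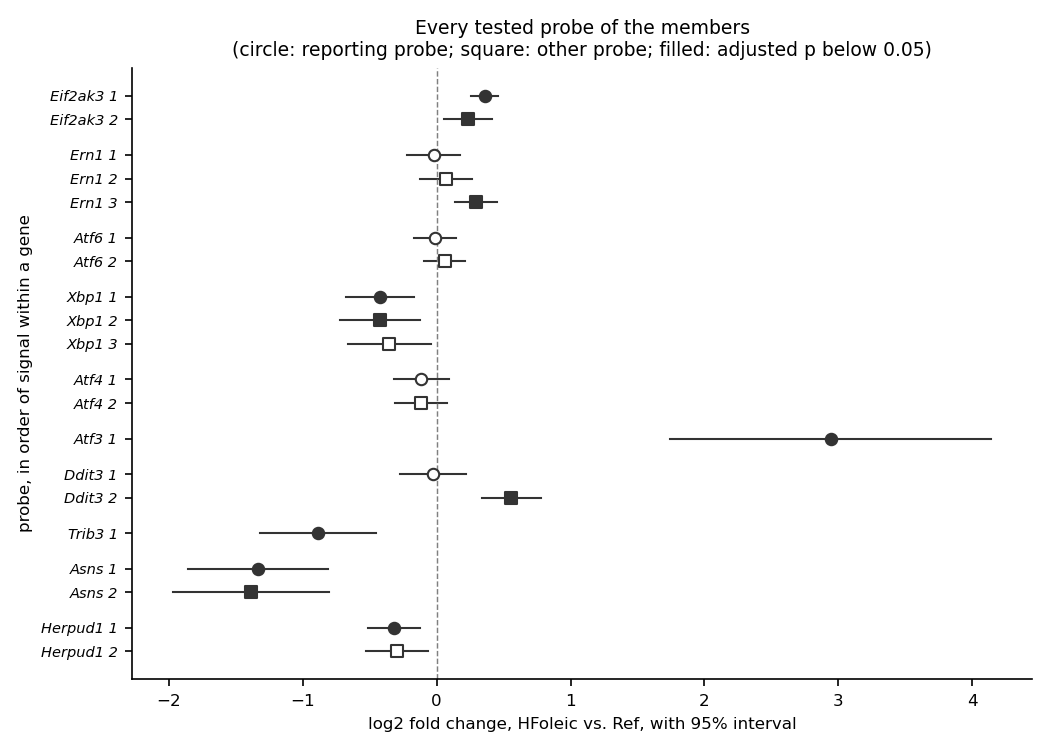
HFoleic vs. Ref log2 fold change of each of the 20 tested probes of the 10 genes, with 95% intervals, as a circle for the reporting probe and a square for another, filled where called. The probes of Asns, Herpud1, Xbp1, Eif2ak3 and Atf4 fall on the same side of 0. Those of Ddit3 (-0.03 and 0.56), Ern1 (-0.02, 0.07 and 0.29) and Atf6 (-0.01 and 0.06, neither called) do not.

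Asns, Trib3 and Herpud1, targets of the response, fell on the high-fat diet in the control lineage. Asns, the asparagine synthetase that ATF4 induces when amino acids are short, had a lowest, median and highest signal of 14.06, 14.51 and 14.77 in Ref, 12.61, 12.95 and 13.93 in HFoleic, and 12.84, 13.85 and 14.48 in HFepa (mm9 chr6:7625171-7625228). Every HFoleic mouse was below every Ref mouse, and HFepa overlapped with both. Asns fell 2.52-fold in HFoleic vs. Ref (-1.33, SE 0.25, adjusted p = 0.00102), by -1.31, -1.47 and -1.30 within the 3 slides, and by -1.38 on a second probe (adjusted p = 0.00149). Against Ref, HFepa stood at -0.79 (adjusted p = 0.072).

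Trib3, a pseudokinase induced by ATF4 and CHOP that restrains both ATF4 and insulin signalling, fell 1.84-fold in HFoleic vs. Ref (-0.88, SE 0.21, adjusted p = 0.00357). Its probe (mm9 chr2:152163161-152163220) gave 11.63, 12.25 and 12.60 in Ref, 10.85, 11.26 and 12.001 in HFoleic, and 11.03, 11.94 and 12.12 in HFepa, as lowest, median and highest. The highest HFoleic mouse reached into the Ref range. Within slides the difference was -0.80, -0.53 and -1.35.

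Herpud1, an ER membrane protein that takes part in the degradation of misfolded proteins, fell 1.24-fold (-0.31, SE 0.09, adjusted p = 0.0144). It had 12.04, 12.19 and 12.37 in Ref, 11.68, 11.89 and 11.995 in HFoleic, and 11.72, 12.003 and 12.39 in HFepa, as lowest, median and highest (mm9 chr8:96919117-96919176). Ref and HFoleic did not overlap, and HFepa ran across most of both. A second Herpud1 probe was at -0.30 and just missed the threshold (adjusted p = 0.0504).

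Letters of a motif common to ATF4 targets stand near the start sites of genes that rose and of genes that fell. The RefSeq promoter table (GRCm38.p6) holds a 300-base window from 250 bases before to 50 after the start site for 9 of the 10 genes, Atf6 being the exception. The core of the site bound by ATF4 with C/EBP factors, TGATGNAA, was searched on both strands and was present in 4 of these 9 windows, and in 3.97% of the 32,851 windows of the table. The 4 genes were Asns (first base at -23), Atf3 (-110), Herpud1 (-112) and Trib3 (15, after the start site), of which Atf3 rose and the others fell in HFoleic vs. Ref. The unfolded protein response element TGACGTGG (0.676% of windows) and the ER stress response element (0.119%) were in none of the 9, and the second form of the latter (0.0365%), searched after the others, was in Herpud1 at -52. These ER elements share the letters CCACG. A match is a description of letters, not of a bound site. The genes were picked as parts of these responses, so a share above that of all windows is not a test of anything. The stretches are shown with the TGATGNAA match or its reverse complement in capitals, and in Herpud1 also both ends of the second element. They lie at chr6:7693210-7693359 for Asns, chr1:191183334-191183503 for Atf3 and chr2:152344028-152344057 for Trib3, all on the minus strand, and at chr8:94386259-94386428 on the plus strand for Herpud1.
Asns, -150 to -1: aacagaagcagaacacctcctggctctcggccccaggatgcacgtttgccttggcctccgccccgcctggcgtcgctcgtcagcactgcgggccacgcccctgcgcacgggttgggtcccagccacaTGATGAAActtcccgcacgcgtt
Atf3, -170 to -1: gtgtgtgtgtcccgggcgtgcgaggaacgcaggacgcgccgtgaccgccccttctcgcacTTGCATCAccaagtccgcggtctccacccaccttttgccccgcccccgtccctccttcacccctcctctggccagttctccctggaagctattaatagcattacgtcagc
Herpud1, -170 to -1: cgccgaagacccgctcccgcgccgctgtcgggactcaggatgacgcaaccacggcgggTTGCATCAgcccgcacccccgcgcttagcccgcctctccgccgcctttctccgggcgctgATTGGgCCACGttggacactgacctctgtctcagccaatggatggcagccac
Trib3, 4 to 33: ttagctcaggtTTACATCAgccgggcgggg

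The omega 3 lineage on the high-fat diet gave fewer calls. In HFepa vs. Ref, 1 of the 10 genes was called, Eif2ak3, against 2.46% of all genes (1.03% higher and 1.42% lower). Atf3, Eif2ak3, Trib3 (-0.42, adjusted p = 0.224) and Asns, 4 of the 10, had an unadjusted p below 0.05, as had 21.6% of all genes. The groups did not overlap for Eif2ak3 only, against 1.04%. The median difference of the 10 was 0.02, against -0.02 over all genes. Xbp1 stood at -0.19 (adjusted p = 0.349), Herpud1 at -0.13 (0.43), Atf4 at 0.05 (0.798), Ern1 at 0.03 (0.897), Atf6 at 0.02 (0.914) and Ddit3 at 0.15 (0.452). Without the 4 arrays with epididymis and testis RNA, no gene of the 10 and none of all 25,618 was called by limma in this contrast, and Eif2ak3 was at 0.24 (adjusted p = 0.142).

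Between the 2 lineages on the high-fat diet, limma called none of the 10 genes and 0% of all genes, with 0% higher and 0% lower. On the reporting probes, an unadjusted p below 0.05 was found for 5 of the 10, against 20.8% of all genes. These were Eif2ak3 (-0.14, 95% interval -0.23 to -0.04, adjusted p = 0.131), Atf3 (-1.52, adjusted p = 0.142), Trib3 (0.46, adjusted p = 0.188), Asns (0.54, interval 0.05 to 1.03, adjusted p = 0.203) and Herpud1 (0.19, adjusted p = 0.229). Other probes of Ddit3 and Ern1 also had an unadjusted p below 0.05. The spliced-transcript probe of Ddit3 was at -0.29 (adjusted p = 0.138), against 0.18 on its reporting probe (adjusted p = 0.357). The upstream Ern1 probe was at -0.17 (adjusted p = 0.189), against 0.05 on its reporting probe (adjusted p = 0.803). No gene of the 10 had HFepa and HFoleic apart without overlap (0.355% of all genes did). The median difference of the 10 was 0.17, against 0.01 over all genes. HFepa mouse 1 weighed on this contrast. Without it, Atf3 (-1.92, adjusted p = 0.0271) and Eif2ak3 (-0.15, adjusted p = 0.048) were called lower in HFepa. A miss of the threshold does not show that the lineages were alike.

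**Figure D3:**
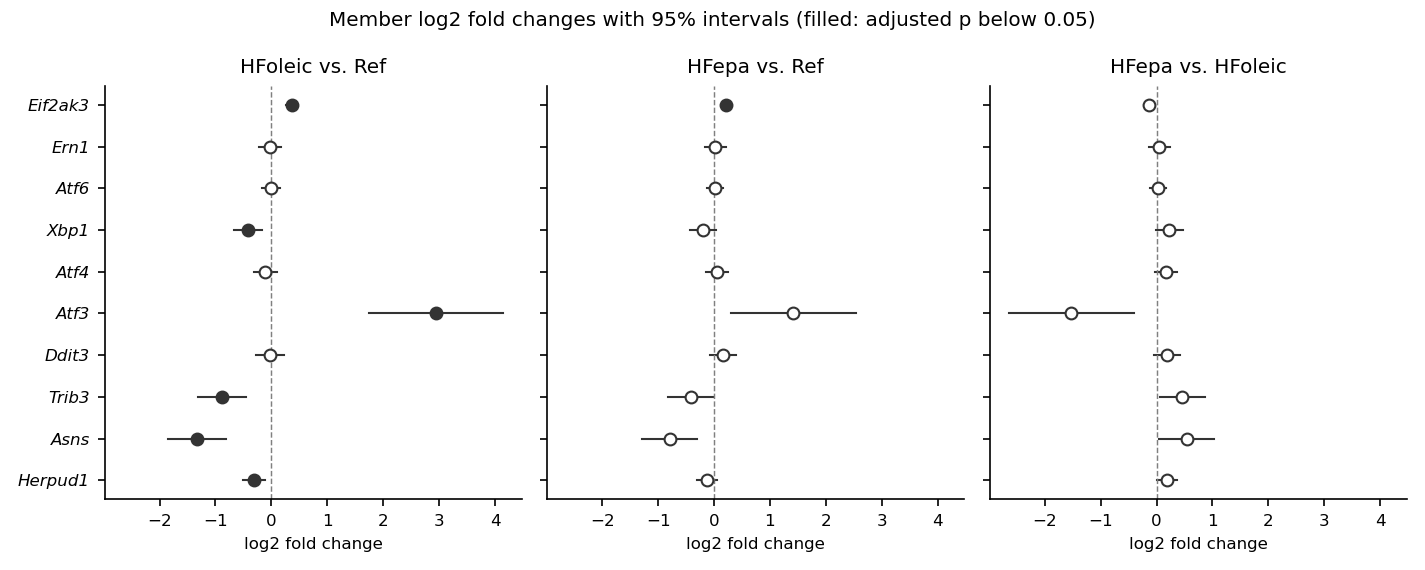
Log2 fold changes of the 10 genes in the 3 contrasts between groups, with 95% intervals, filled where the adjusted p is below 0.05. HFoleic vs. Ref has 6 calls from -1.33 (Asns) to 2.94 (Atf3), HFepa vs. Ref has Eif2ak3 at 0.22, and HFepa vs. HFoleic has none.

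The wider pathway was read from 88 further genes in 6 lists, of which 87 were tested. The exception was the cystine transporter gene Slc7a11, which was well above background on too few arrays. In HFoleic vs. Ref 36 of the 87 were called (41.4%, against 31.8% of all genes), 24 higher and 12 lower, with a median of 0.09. An unadjusted p below 0.05 was found for 43 (42.2% of all genes had one), and 18 had no overlap between groups (14% of all genes). In both contrasts with HFepa limma called 0 of the 87, with 21 and 23 below an unadjusted p of 0.05, near the 21.6% and 20.8% of all genes. These counts of 0 depended on single arrays, with 6 called in HFepa vs. Ref without HFepa mouse 3 and 8 in HFepa vs. HFoleic without HFepa mouse 1, and with array weights 13 were called in the latter. Without the 4 arrays with epididymis and testis RNA the count in HFoleic vs. Ref was 17 (19.5%, against 18.1% of all genes), 9 higher and 8 lower, so that the share of the lists was then near that of all genes.

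Of 17 ER chaperone and folding genes tested, 9 were called (52.9%, against 31.8% of all genes), all higher, and 8 did not pass, with a median of 0.35 over the 17. Sdf2l1, a component of the ER chaperone complex, ran from 8.83 to 9.35 in Ref, from 9.59 to 10.84 in HFoleic and from 9.26 to 10.89 in HFepa, and rose by 1.28 in HFoleic vs. Ref (SE 0.24, adjusted p = 0.00104). Its HFepa vs. Ref difference was 0.79 (adjusted p = 0.0664). Manf, a secreted ER stress protein, rose by 0.57 (SE 0.12, adjusted p = 0.00176) and Pdia6, a disulphide isomerase, by 0.35 (SE 0.07, adjusted p = 0.00171). The other 6 were Hspa5, the gene of the main ER chaperone BiP (0.54, adjusted p = 0.00871), Creld2 (0.40), Calr (0.40), Pdia3 (0.39), Dnajb11 (0.38) and P4hb (0.34), named after their values were seen. The ER stress response element was in the windows of 8 of 15 chaperone genes (0.119% of all windows), of which 4 rose and 4 were not called. The list was picked as part of the response, so this share too is only a description. No chaperone was called lower under any other scaling, and without the 4 arrays 3 were called (17.6%, against 18.1% of all genes), all higher.

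In ER-associated degradation 4 of 14 were called, 3 higher and 1 lower, with a median of -0.04 over the list. Their share of 28.6% was near the 31.8% of all genes. Edem1, which recognises misfolded glycoproteins, rose by 0.44 (SE 0.10, adjusted p = 0.00383), Sec61b, a subunit of the translocation channel, by 0.38 (SE 0.08, adjusted p = 0.002), and Edem2 by 0.33 (adjusted p = 0.012). Among other sensors and processing genes 3 of 10 were called, also near that share. Wfs1, an ER membrane protein that dampens ATF6, rose 2.53-fold (1.34, SE 0.27, adjusted p = 0.00158), and Creb3, a membrane-bound transcription factor, rose by 0.41 (SE 0.09, adjusted p = 0.00305). Rtcb, the ligase that joins the Xbp1 pieces after IRE1 has cut them, fell by 0.29 (SE 0.07, adjusted p = 0.00349).

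The list of other eIF2 kinases, phosphatase and exchange factor genes does not hold Eif2ak3. In it 4 of 9 were called (44.4%, against 31.8% of all genes), all lower (16.7% of all genes), with a median of -0.10. They were Ppp1r15a, which recruits the phosphatase that reverses eIF2 phosphorylation (-0.60, SE 0.13, adjusted p = 0.00222), its constitutive relative Ppp1r15b (-0.41, SE 0.12, adjusted p = 0.0139), and the eIF2B subunit genes Eif2b1 (-0.36, SE 0.10, adjusted p = 0.0118) and Eif2b5 (-0.22, adjusted p = 0.0191). Eif2s1, the gene of the phosphorylated subunit itself, was at 0.20 (adjusted p = 0.0556), and was called higher with normexp background correction, with median centring and on the deposited log2 values. With the replicate block 1 gene of this list was called (11.1%, against 21.1% of all genes), and it was lower. Without the 4 arrays with epididymis and testis RNA 2 were called (22.2%, against 18.1% of all genes), again lower.

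ATF4 targets and amino acid response genes went both ways. Of 25 tested, 11 were called (44%, against 31.8% of all genes), 6 higher and 5 lower, with a median of 0.02. With the replicate block 8 were called (32%, against 21.1% of all genes). Without the 4 arrays with epididymis and testis RNA 6 were called (24%, against 18.1%). Chac1, a glutathione-degrading enzyme that ATF4 and CHOP induce, had 11.86 to 12.57 in Ref and 10.30 to 11.10 in HFoleic, with no overlap, and fell 2.85-fold (-1.51, SE 0.28, adjusted p = 0.000876). HFepa stood at -0.84 against Ref (adjusted p = 0.0826). Sesn2, which restrains the growth kinase mTORC1, fell 2.18-fold (-1.12, SE 0.22, adjusted p = 0.00139), and Gpt2 (-0.80), Ddit4 (-0.78) and Fgf21 (-0.67) fell too. Psph, of serine synthesis, rose 1.99-fold (0.99, SE 0.17, adjusted p = 0.000606). The others that rose were Vldlr (0.77), Mthfd2 (0.68), Aldh18a1 (0.64), Psat1 (0.58) and Shmt2 (0.32), of which Psat1, Mthfd2, Aldh18a1 and Shmt2 act in serine, folate and proline metabolism. The TGATGNAA core was in the windows of 6 of 23 genes of this list (3.97% of all windows), 5 of them tested, of which 1 rose, 2 fell and 2 were not called.

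Of 12 genes of ER stress cell death and signalling, 5 were called (41.7%, against 31.8% of all genes). Map3k5, the kinase ASK1, fell by 0.70 (SE 0.11, adjusted p = 0.000468). Casp12, a caspase at the ER, rose by 0.55 (SE 0.15, adjusted p = 0.0088), and the pro-apoptotic BCL2 family genes Bak1 (0.48, SE 0.12, adjusted p = 0.0055), Bbc3 (0.50, adjusted p = 0.012) and Bcl2l11 (0.53, adjusted p = 0.034) rose. Of 3 other Bcl2l11 probes, 1 went the same way and was called (0.39). The rest did not share that direction and were not called, the lowest at -0.08. Without the 4 arrays 1 gene of this list was called (8.33%, against 18.1% of all genes), and it was lower.

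**Figure D4:**
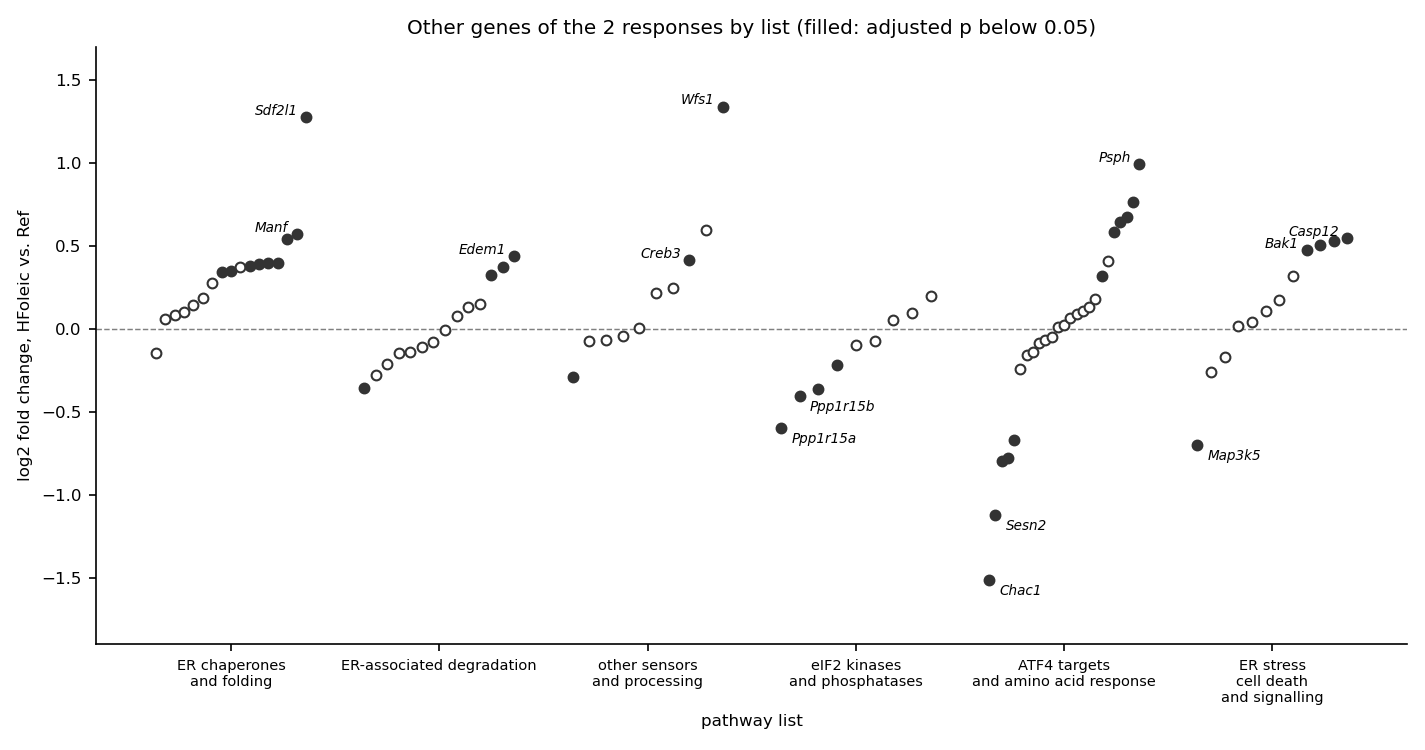
HFoleic vs. Ref log2 fold change of each of the 87 measurable pathway genes by list, filled where called, with the names of some of the genes that differed most. All 9 called chaperone genes lie above 0 and all 4 called eIF2 genes below, while the ATF4 targets run from -1.51 (Chac1) to 0.99 (Psph) among the called.

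Whether the genes varied together from mouse to mouse was read from the deviations of the 20 mice from their group means, over all 45 pairs of the 10 genes, with permutation tests (100000 draws, two-sided, Benjamini-Hochberg adjusted over the 45). Pearson's r passed for 7 pairs, 4 positive and 3 negative, and Spearman's rho for 5, all among the 7. With slide means removed as well, 15 pairs passed by r. Mice above their group for Atf3 were below it for Trib3 (r = -0.76, adjusted permutation p = 0.00382, rho = -0.75, p = 0.0112) and for Asns (r = -0.75, p = 0.0153, rho = -0.66, p = 0.0384). Xbp1 and Asns went together (r = 0.75, p = 0.00382, rho = 0.71, p = 0.0168), as did Trib3 and Herpud1 (r = 0.68, p = 0.0153, rho = 0.70, p = 0.0168).

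Ddit3, on its reporting probe, went against Asns (r = -0.70, permutation p = 0.0153, rho = -0.73, p = 0.0168). Ddit3 with Atf3 (r = 0.64, rho = 0.60) and Trib3 with Asns (r = 0.63, rho = 0.56) passed by r (permutation p = 0.0396 for each) and not by rho (p = 0.0517 and 0.0895). The sign of all 7 held without the 2 mice farthest from the median of the first gene, where r was -0.64 for both Atf3 pairs, 0.70 for Xbp1 with Asns, 0.61 for Trib3 with Herpud1, 0.52 for Trib3 with Asns, -0.52 for Ddit3 with Asns and 0.39 for Ddit3 with Atf3. Within slides, r was 0.74, 0.80 and 0.92 for Xbp1 with Asns, -0.83, -0.62 and -0.75 for Atf3 with Asns, and -0.93, -0.40 and -0.58 for Atf3 with Trib3. It was less even for Trib3 with Herpud1 (0.78, 0.05 and 0.59), for Ddit3 with Atf3 (0.81, 0.48 and 0.49), for Trib3 with Asns (0.94, -0.22 and 0.50) and for Ddit3 with Asns (-0.88, -0.73 and 0.08).

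Some of the mice behind these values, picked after they were seen and already part of the correlations above, were as follows. HFepa mice 1 and 6, highest for Atf3 in their group, were its lowest for Asns (12.84 and 12.95) and for Xbp1 (14.33 and 14.46). HFoleic mouse 1, lowest for Atf3 in its group (9.88), was its highest for Asns (13.93), Trib3 (12.001) and Xbp1 (14.72), and had the lowest lipid-associated macrophage mean of that group (11.80).

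**Figure D5:**
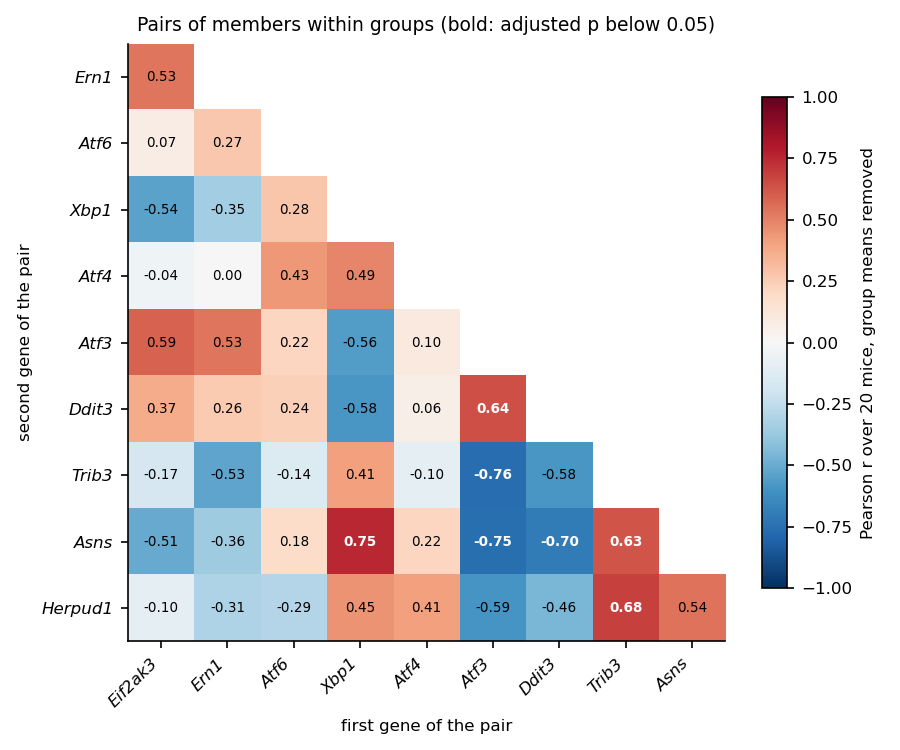
Grid of Pearson's r for all 45 pairs of the 10 genes over 20 mice with group means removed, first gene of a pair on the x axis and second on the y axis, red for positive and blue for negative, with r printed in each cell and in bold for the 7 pairs with an adjusted permutation p below 0.05. Atf3 runs against Asns (r = -0.75) and Trib3 (r = -0.76), and Xbp1 runs with Asns (r = 0.75).

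Genes among the 3 most like each of the 10 over the 20 arrays, by Pearson's r of log2 signal and with group differences included, are given as a description. For Atf3 they were Slc15a3 (r = 0.993), Bcl2a1c (0.991) and Bcl2a1d (0.988). For Asns they were Dpm1 (0.973), 1500015A07Rik (0.971) and Csad (0.971), for Trib3 BC039771 (0.941), Snx21 (0.922) and Ube2o (0.919), for Xbp1 Ces1f (0.930) and Rif1 (0.926), and for Herpud1 Zbtb16 (0.896), Slc4a4 (0.879) and Ezh1 (0.878). For Eif2ak3 they were Msantd4 (0.914) and Tyms (0.906). Likeness was weaker for Atf4 (Bag3, 0.833, Chd1, 0.824, and Ubap2l, 0.820), Ern1 (Mcrs1, 0.839), Ddit3 (Fmn2, 0.818) and Atf6 (Isg20l2, 0.776, and Zfp146, 0.775).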

How the data were processed

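VAT RNA of 20 mice was hybridised, 1 mouse per array, to 1-colour (Cy3) Agilent mouse arrays. The deposited scanner files, made by the authors with Agilent Feature Extraction 10.10.1.1, hold a median intensity per spot, with no normalization between arrays. The authors' deposited value table holds log2 values, used as an alternative only. Coordinates of probes are those of the files (mm9), whose exon or untranslated region was not resolved here.

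Control spots were left out and marked spots set to missing. A probe was tested if well above background on at least 6 arrays. Log2 median intensity was quantile-normalised, spots of a probe were averaged, and limma 3.58.1 (R 4.3.3) was fitted with a mean per group on all 20 arrays, with Benjamini-Hochberg adjustment over 39,390 probes. A gene was reported by its tested probe of highest mean signal. The number of mice limits the precision. Scripts were tested on simulated data. Pair correlations used scipy 1.17.1.

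Named were the 10 genes, other probes of theirs that differ in direction or call, the 3 genes of smallest p per pathway list, the 3 genes most like each of the 10 (those with a symbol), and Adipoq, Plin1, Adgre1 and Cd68. A few genes under this rule are not reported here. The members and lists were chosen with earlier results of these data known. The labels do not say whether a replicate number shared between groups links those mice, and the main fit has no term for it. The paper states that HFoleic and HFepa mice were matched for body weight. Of 16 same-numbered pairs, 5 had deviations correlated above 0.1 (range -0.59 to 0.56). Such correlations cannot show whether the numbers link mice, so the fit with the replicate block is given as an alternative.

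Alternatives were the processed signal scaled to the 75th percentile, normexp (offset 50), median centring, the deposited log2 values, no filter, a block for slide or for replicate number, weighted arrays, only the compared groups, the mean of a gene's probes, each array left out, and, chosen after the data were seen, the 4 arrays with epididymis and testis RNA left out.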

Additional observations from a re-analysis of the deposited data

Results flagged for a closer look

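For Atf4, Ref mouse 5 stood apart from the other Ref mice at a log2 signal of 15.45, with the nearest at 15.07 and the lowest at 14.88. Its gap to the nearest mouse was 0.673 of the range of the 6 mice, above Dixon's 95% critical value for a group of this size. This was 1 of 30 sets of values examined, and chance alone marks about 1 in 20.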

How the results depend on the processing

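In HFoleic vs. Ref the 6 calls among the 10 genes numbered 6 with each array left out and under each other scaling. Of 600 fold changes recomputed with an array left out 581 kept direction and side of the threshold, and of 420 under other settings 392 did. With the replicate block, 4 of the 10 genes were called in HFoleic vs. Ref (Xbp1 0.0847 and Herpud1 0.0902 as adjusted p), 0 in HFepa vs. Ref, 27 pathway genes, and 5396 and 17 of all genes in these contrasts. Without the 4 arrays with epididymis and testis RNA, which leaves fewer samples, the counts in HFoleic vs. Ref were 3, 17 and 4649 (the 10 genes, pathway genes, all genes), and 0 of the 10 and 0 of all genes were called in HFepa vs. Ref. Array weights gave 2, 1 and 1018 in HFepa vs. Ref, and 4, 13 and 2924 in HFepa vs. HFoleic, with Atf3 (-1.74, adjusted p = 0.025), Eif2ak3 (-0.14, 0.0342), Trib3 (0.58, 0.0334) and Asns (0.67, 0.0414) called. The slide as a block gave 2 pathway genes and 811 of all genes in HFepa vs. HFoleic. In HFepa vs. Ref, all genes called numbered 413 with median centring, 415 without the filter and 109 with only the compared groups fitted, where 0 of the 10 genes were called, as with the mean of a gene's probes. The pairs that passed numbered 15 with slide means removed. The cause of these shifts was not tested.

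Leaving out 1 array moved the count of the 10 genes in HFepa vs. Ref from 0 (Ref mouse 3, Ref mouse 5 or HFepa mouse 6) to 2 (HFepa mouse 3), of pathway genes from 0 to 6 and of all genes from 100 (Ref mouse 6) to 1801 (HFepa mouse 3). In HFepa vs. HFoleic it moved them from 0 to 2, from 0 to 8 and from 0 to 1978, each at its highest without HFepa mouse 1, and without HFoleic mouse 1 there were 3 pathway genes and 1117 of all genes. Differences near 0 changed sign. In HFoleic vs. Ref, Ddit3 was at 0.025 with array weights and 0.27 (adjusted p = 0.0441) with the mean of its probes, Atf6 at 0.034 and 0.025, and Ern1 at 0.028 and 0.11, both with median centring and with the mean of probes. In HFepa vs. Ref, Atf4 was at -0.0014 on the processed signal and -0.014 with the mean of probes, and Atf6 at -0.00014 with the replicate block, -0.026 with the mean of probes and -0.00045 without the 4 arrays. In HFepa vs. HFoleic the mean of probes gave -0.053 for Ddit3, -0.052 for Atf6 and -0.040 for Ern1. With 1 array left out, ranges were -0.081 to 0.040 (Ddit3), -0.046 to 0.044 (Atf6) and -0.081 to 0.039 (Ern1) in HFoleic vs. Ref, -0.0016 to 0.13 (Atf4), -0.016 to 0.074 (Atf6) and -0.023 to 0.058 (Ern1) in HFepa vs. Ref, and -0.00041 to 0.063 (Atf6) and -0.013 to 0.11 (Ern1) in HFepa vs. HFoleic.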

Other observations

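Probes of 4 pathway genes outside the 10 also disagreed in HFoleic vs. Ref, with a probe called in the direction opposite to the reporting one. The genes, chosen after their values were seen, were Edem3 (0.13 on the reporting probe, -0.27 on the called one), the amino acid sensing eIF2 kinase Eif2ak4 (0.09, with other probes at 0.48 and -0.29), the stress kinase Mapk8 (0.02 and -0.24) and Trib1 (0.11 and -0.37). None of the 4 was called on its reporting probe.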
